A study of Homo sapiens with 4 samples.

Results

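The genes described here encode the core proteins of the small nuclear ribonucleoproteins (snRNPs) and their close partners in the spliceosome. They were taken by symbol: SNRNP, SF3A, SF3B, PRPF or LSM followed by a number (for PRPF and LSM also with a letter after it), SNRPA to SNRPG with or without a number, U2AF1, U2AF2 and U2SURP. Of the 20003 genes listed, 56 matched. The study measured RNA by sequencing in HCT116, an epithelial colorectal cancer cell line, with 2 libraries labelled NUDT21 knockdown (shNUDT21 1 and shNUDT21 5) and 2 control libraries labelled wild type (shPLKO 1 and shPLKO 2). The knockdown cells carried a short hairpin RNA against NUDT21, and the series text calls the control hairpin shScramble. All libraries had the treatment label NONE and the same time label, without a unit. The labels do not say whether 1 and 5 are hairpins or replicates, and name no separate cultures within a group, so p-values measure only the spread between these libraries.

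An snRNP is a small nuclear RNA held in a ring of Sm proteins, or of LSm proteins for U6, with further proteins that belong to each particle. U1 recognises the 5′ splice site, U2 the branch site, and the tri-snRNP of U4, U6 and U5 brings in the catalytic RNAs; U11 and U12 do the work of U1 and U2 on a rare class of introns. U1 is also known to keep nascent transcripts from being cleaved and polyadenylated early. NUDT21, the small subunit of cleavage factor Im, binds UGUA motifs upstream of cleavage sites, and its depletion is known to shift many messages to other poly(A) sites.

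NUDT21 itself stood at 3.96 and 2.999 RPKM (reads divided by gene model length in kilobases and by library depth) in shNUDT21 1 and 5, against 24.3 and 26.9 RPKM in shPLKO 1 and 2. It fell by 2.58 on the log2 scale (limma adjusted p 0.0406). Its limma adjusted p was 0.0653 with no filter on low values, 0.1165 without shPLKO 1 and 0.1107 without shPLKO 2, at log2 fold changes of -2.58, -2.65 and -2.51. Library depth, recovered from the values, was between 29963980 and 30459886 reads. All 7 epithelial markers checked (EPCAM, CDH1, KRT8, KRT18, KRT19, CLDN4 and ELF3) were above 1 RPKM in every library. They summed to 3755 and 4619 RPKM in shNUDT21 1 and 5 and to 10495 and 9842 RPKM in shPLKO 1 and 2. The highest value was 1323 and 1499 RPKM in shNUDT21 1 and 5, against 4389 and 4137 RPKM in shPLKO 1 and 2. The lowest value went the other way, at 63.8 and 50.6 RPKM in the knockdown, against 42.7 and 46.6 RPKM in the controls. Of 3 leukocyte, 3 endothelial and 4 fibroblast markers, COL1A1 alone was above 1 RPKM throughout, at 4.38 and 6.96 RPKM in shNUDT21 1 and 5, against 6.34 and 6.72 RPKM in shPLKO 1 and 2; the leukocyte markers summed to at most 0.732 RPKM in any library and the endothelial markers to at most 0.487 RPKM. The part of these differences in the results below was not tested. In bulk RNA, fewer cells that express a gene and less RNA per cell cannot be told apart.

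Few of the 56 genes differed between knockdown and control cells beyond the spread of the libraries. All 56 passed the filter of a mean of at least 1 RPKM. A gene was called when its limma adjusted p, taken over all 11124 genes tested, was under 0.05. Only SNRNP70, of the U1 particle, was called, and it was lower. That is 1.79% of the members, against 5.82% of all genes tested. No member was called higher (limma, 2 at an unadjusted p under 0.05, and 0 called higher by voom, a count-based weighting run on the recovered reads), against 2.61% of all genes by limma. Of 11117 genes, voom called 369 higher. An unadjusted p under 0.05 was reached by 8 members (14.3%), 2 higher and 6 lower, against 33.9% of all genes. The knockdown and control libraries did not overlap for 25 members (44.6%), 9 higher and 16 lower, against 66.2% of all genes, 32.8% higher and 33.4% lower. The median log2 fold change over the members was -0.08, beside -0.003 over all genes.

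These counts rest on all 4 libraries. Without shNUDT21 1 the same fit called 7 members higher and 33 lower, and without shNUDT21 5 it called 23 higher and 12 lower. These are 71.4% and 62.5% of the members, near the 68.7% and 65.4% of all genes that the same fits called. There the lone knockdown library is assumed to vary like the controls, which lay close together. Without shPLKO 1 or without shPLKO 2 it called 0 members in either direction (limma, 2 and 1 at an unadjusted p under 0.05, all lower), where 1 of all 11124 genes (0.00899%) and 0 were called, so these fits say nothing of the members. For 45 of the 56 members the 95% interval of the fold change lay within 1 log2 unit of no change; over all genes this held for 8018 of 11124. Exons of 22 members overlap those of another annotated gene by 50 bases or more, mostly on the other strand, and 13 have named pseudogenes. Whether strand was used in counting is not given, so their reads cannot be told apart from those of the other gene.

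**Figure D1:**
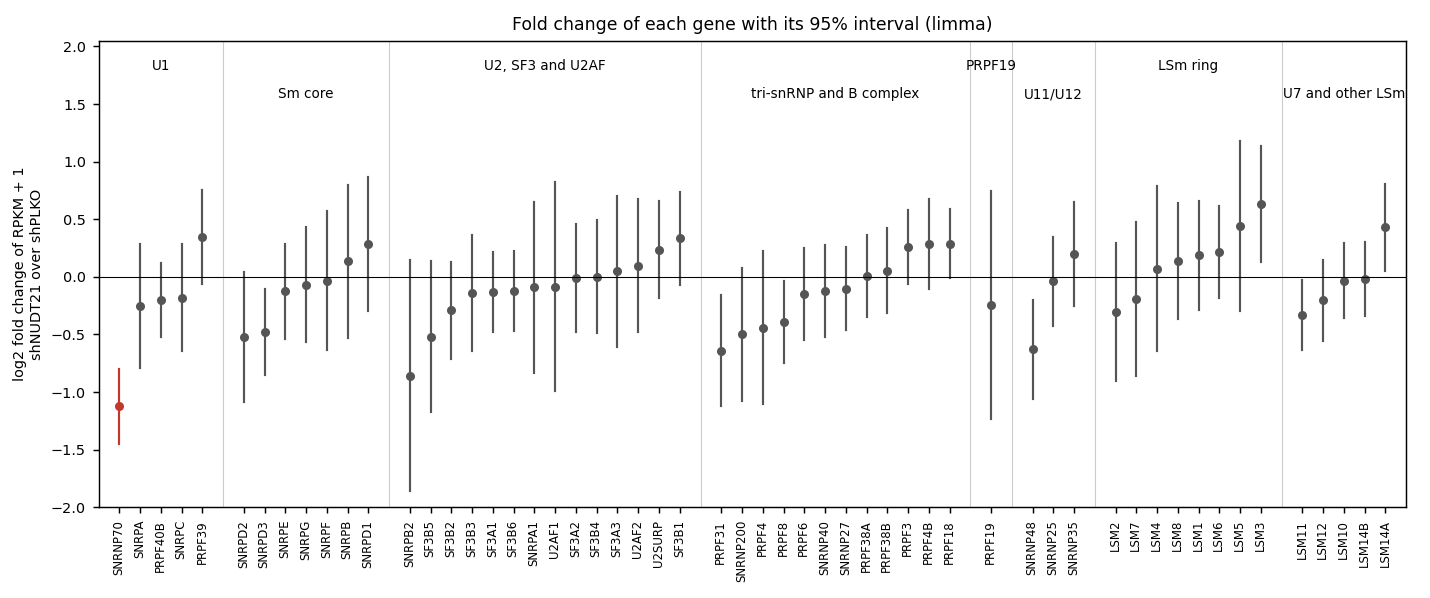
The y axis gives the log2 fold change of RPKM + 1, shNUDT21 over shPLKO, for 55 of the genes, grouped by role; dots are estimates and bars are 95% intervals from limma with 2 libraries a group. SNRNP70, in red, is the only member called, at -1.12, and the highest estimate is that of LSM3, at 0.63.

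Because NUDT21 acts at UGUA motifs near cleavage sites, the annotated transcript ends of the 8 members with an unadjusted p under 0.05 were searched for TGTA, the motif in DNA letters. The last 100 bases of 1 coding transcript a gene were read on the transcript strand (GENCODE v29). SNRNP70 and PRPF31, both lower, held no TGTA in this window. The other 6 held at least 1. A stretch of 30 bases around the first site of each is shown so that the sites can be compared; capitals mark every TGTA in it.
SNRNP48: caatttccttttaTGTAgcttgctttttca
SNRPD3: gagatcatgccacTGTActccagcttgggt
PRPF8: aaaatataataataaatttTGTAtaaatag
LSM11: ggagtctgaaaacTGTAataaacTGTAttc
LSM14A: ttcccctcctgtgTGTAaataaaatacttc
LSM3: cagctgtgttcaaTGTAgaaaattaataaa
The first site began 77 bases before the end in SNRNP48, 50 in SNRPD3, 46 in LSM3, 25 in both LSM11 and LSM14A, and 11 in PRPF8. SNRNP48, SNRPD3, PRPF8 and LSM11 had lower levels in the knockdown and LSM14A and LSM3 higher ones, so a site was present beside estimates of either sign. Over all members with such a transcript, 33 of 55 held a TGTA, against 5955 of 11038 genes tested, or 53.95%. Of the genes called higher 61.8% held one, and of those called lower 46.2%. A match of letters says nothing about binding, and the cleavage sites used in these cells were not measured here.

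Among U1 proteins, SNRNP70 was the only member called, and it was lower. It encodes U1-70K, which binds the first stem-loop of U1 RNA and bridges to SR proteins. Its level was 84.1 and 83.3 RPKM in shNUDT21 1 and 5 (5792 and 5685 reads), against 183 and 184 RPKM in shPLKO 1 and 2 (12714 and 12689 reads). Libraries of a group differed by less than their 95% counting intervals (81.9 to 86.3 and 81.1 to 85.5 RPKM in the knockdown, 180.1 to 186 and 180.6 to 187 RPKM in the controls). The groups lay far apart, with a ratio of 0.456 and a log2 fold change of -1.12 (95% interval -1.45 to -0.80, limma adjusted p 0.0406). It was the lowest fold change among the members. After removal of the GC content and length trend it was -0.87 and still called (limma adjusted p 0.0483). It was not called with no filter on low values, without shPLKO 1 or without shPLKO 2 (limma adjusted p 0.0653, 0.4705 and 0.403), at log2 fold changes of -1.12, -1.13 and -1.12. Its exons overlap those of no other annotated gene by 50 bases or more.

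The 2 other particle-specific U1 proteins were not called. SNRPA, which binds U1 RNA and is known to inhibit polyadenylation of its own message, stood at 73.0 and 51.2 RPKM in shNUDT21 1 and 5, against 75.1 and 71.2 RPKM in shPLKO 1 and 2. SNRPC, which stabilises pairing with the 5′ splice site, stood at 94.1 and 72.8 RPKM, against 99.0 and 89.4 RPKM in the controls. In each, shNUDT21 1 lay within the control range and shNUDT21 5 under it. SNRPC has 18 named pseudogenes in the annotation, with which reads could be shared. Relatives of yeast U1 components were at lower levels: PRPF39 averaged 7.55 ± 0.393 RPKM in the knockdown and 5.76 ± 0.994 RPKM in the controls and PRPF40B averaged 4.25 ± 0.141 RPKM in the knockdown and 5.04 ± 0.225 RPKM in the controls (SD, n = 2 each). In PRPF39 both knockdown libraries were above both controls and in PRPF40B both were below, as in 32.8% and 33.4% of all genes tested. PRPF39 exons overlap those of FKBP3 on the other strand, and PRPF40B exons overlap those of FAM186B and FMNL3 on the other strand.

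**Figure D2:**
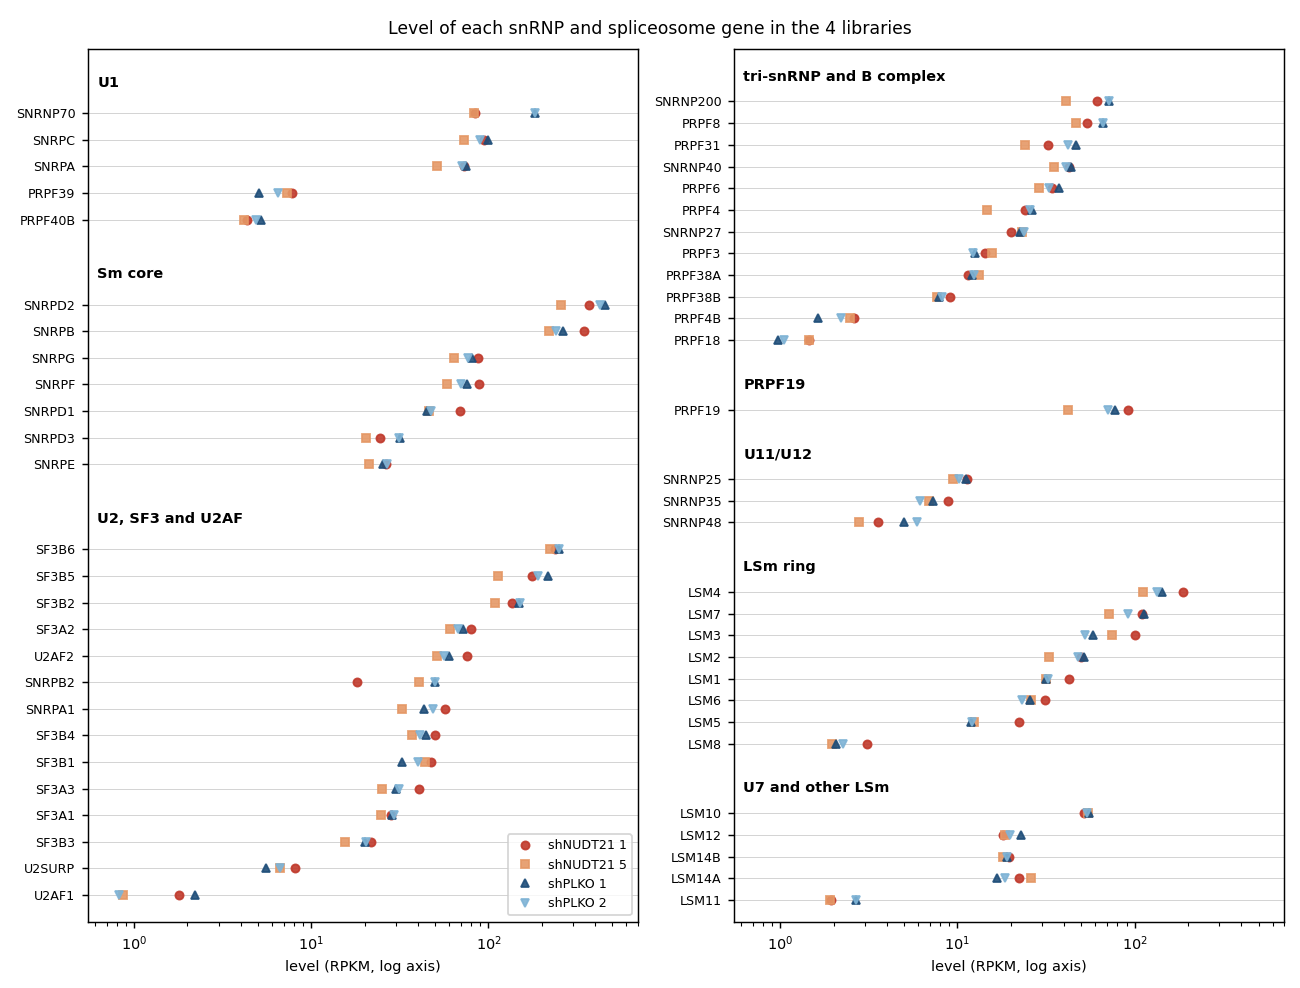
The x axes give the level of 55 of the genes in RPKM on a log axis, and each row is a gene, grouped by role and ordered by its mean in the controls. Red circles and orange squares are shNUDT21 1 and 5, blue triangles shPLKO 1 and 2. SNRNP70 has both knockdown libraries well below both controls, while SNRPB2 has only shNUDT21 1 far to the left.

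The Sm proteins, which form the ring shared by U1, U2, U4 and U5, are needed in equal number in each particle, but their messages covered a wide range. Mean levels over the 4 libraries ran from 24.9 RPKM for SNRPE to 377 RPKM for SNRPD2. None of the 7 was called, against 5.82% of all genes tested (limma, 1 at an unadjusted p under 0.05, against 33.9%, and 0 called by voom). SNRPD2 and SNRPD3 were the 2 whose groups did not overlap, which held for 66.2% of all genes tested. SNRPD2 had 368 and 257 RPKM in shNUDT21 1 and 5, against 457 and 428 RPKM in shPLKO 1 and 2 (log2 fold change -0.52, limma adjusted p 0.169). SNRPD3 had 24.3 and 20.4 RPKM in the knockdown, against 31.8 and 31.2 RPKM in the controls (log2 fold change -0.48, limma adjusted p 0.0960). Exons of SNRPD3 overlap those of GGT1 on the same strand and of GUCD1 on the other.

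SNRPB and SNRPD1 had positive estimates carried by a single knockdown library. SNRPB had 348 and 221 RPKM in shNUDT21 1 and 5, against 264 and 242 RPKM in shPLKO 1 and 2. SNRPD1 had 69.0 and 46.3 RPKM, against 45.1 and 47.4 RPKM in the controls. In both genes shNUDT21 1 was above the controls and shNUDT21 5 was not. SNRPE, SNRPF and SNRPG had log2 fold changes of -0.13, -0.03 and -0.07; they have 9, 4 and 20 named pseudogenes. In SNRPF and SNRPG shNUDT21 1 was above both controls and shNUDT21 5 below both.

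There were 14 genes for U2 proteins, the SF3A and SF3B complexes and the U2AF factors. None of them was called, against 5.82% of all genes tested (limma, 0 at an unadjusted p under 0.05, against 33.9%, and 0 called by voom). The lowest estimate was that of SNRPB2, which with SNRPA1 binds a stem-loop of U2 RNA. SNRPB2 had 18.0 RPKM in shNUDT21 1 (95% counting interval 16.9 to 19.2) and 40.3 RPKM in shNUDT21 5 (38.6 to 42.1), against 49.9 and 49.7 RPKM in shPLKO 1 and 2. The 2 knockdown libraries therefore differed from each other more than shNUDT21 5 differed from the controls. The log2 fold change was -0.86 with a 95% interval from -1.86 to 0.15 (limma adjusted p 0.192), -0.30 without shNUDT21 1 and -1.42 without shNUDT21 5. Its partner SNRPA1 had the opposite order of the knockdown libraries, with 56.6 and 32.6 RPKM in shNUDT21 1 and 5, against 43.5 and 48.3 RPKM in shPLKO 1 and 2.

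SF3B1, the large scaffold that clamps the branch site and is mutated in several cancers, had 47.5 and 44.1 RPKM in shNUDT21 1 and 5, against 32.7 and 39.8 RPKM in shPLKO 1 and 2. Its groups did not overlap and its log2 fold change was 0.33 (limma adjusted p 0.1996), the highest estimate of the U2 group. It was 0.05 after removal of the GC content and length trend and 0.20 without shPLKO 1. SF3B5, a small subunit of the same complex, had 176 and 113 RPKM, against 215 and 190 RPKM in the controls, and a log2 fold change of -0.52 (limma adjusted p 0.219). SF3B2 had 136 and 109 RPKM, against 149 and 150 RPKM in the controls. The other subunits, SF3A1, SF3A2, SF3A3, SF3B3, SF3B4 and SF3B6, had log2 fold changes between -0.14 and 0.05. For SF3A2, SF3A3, SF3B3 and SF3B4 such a value averages shNUDT21 1 above both controls and shNUDT21 5 below both, as in SF3A3, with 40.4 and 24.9 RPKM in shNUDT21 1 and 5, against 30.03 and 31.4 RPKM in shPLKO 1 and 2. SF3B6, which sits next to the branch-site adenosine, was the most abundant message of the group at 231 ± 9.76 RPKM in the knockdown and 251 ± 0.345 RPKM in the controls (SD, n = 2 each).

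U2AF2, the large U2AF subunit that binds the polypyrimidine tract, had 75.6 and 51.0 RPKM in shNUDT21 1 and 5, against 59.7 and 56.5 RPKM in shPLKO 1 and 2. U2AF1, the small subunit that reads the AG at the 3′ splice site, was listed at only 1.79 and 0.867 RPKM in the knockdown and 2.22 and 0.822 RPKM in the controls, from 46 to 125 reads. The near-identical gene U2AF1L5 is listed too, at 4.12 and 4.67 RPKM in the knockdown and 4.49 and 3.80 RPKM in the controls. The values of U2AF1 are uncertain, since reads could be split between these copies, and the controls alone differed beyond their counting intervals (1.85 to 2.65 and 0.602 to 1.10 RPKM). Summed, the pair came to 5.91 and 5.54 RPKM in shNUDT21 1 and 5, against 6.72 and 4.62 RPKM in shPLKO 1 and 2. U2SURP, an SR-related U2 protein, had a log2 fold change of 0.24, which turned to -0.14 after removal of the GC content and length trend.

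Among the 12 tri-snRNP and B complex genes, 4 had both knockdown libraries below both controls and 3 had both above. Over all genes tested, 33.4% had both below and 32.8% both above. None of the 12 was called, against 5.82% of all genes tested (limma, 2 lower at an unadjusted p under 0.05, against 33.9% in either direction, and 0 called by voom). PRPF31, which binds U4 RNA and joins the U4/U6 and U5 particles, had 32.5 and 24.2 RPKM in shNUDT21 1 and 5, against 46.6 and 42.0 RPKM in shPLKO 1 and 2. Its log2 fold change was -0.64 (limma adjusted p 0.0932), and its exons overlap those of TFPT on the other strand. PRPF8, the protein that holds the catalytic centre, had 53.8 and 46.9 RPKM, against 66.3 and 65.9 RPKM in the controls (log2 fold change -0.39, limma adjusted p 0.126). SNRNP200, the helicase that unwinds U4 from U6, had 61.6 and 41.2 RPKM, against 71.3 and 72.1 RPKM in the controls. PRPF4, a U4/U6 protein, had 24.1 and 14.6 RPKM, against 26.2 and 25.5 RPKM in the controls. In all 4 genes both knockdown libraries were below both controls, with shNUDT21 5 the lower.

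The 3 genes of this group with no overlap and a higher level were PRPF3, PRPF4B and PRPF18. PRPF3, the partner of PRPF4 in U4/U6, had 14.3 and 15.6 RPKM in shNUDT21 1 and 5, against 12.5 and 12.2 RPKM in shPLKO 1 and 2. PRPF4B, a kinase that phosphorylates tri-snRNP proteins, had 2.59 and 2.49 RPKM, against 1.63 and 2.21 RPKM in the controls. PRPF18, a factor of the second catalytic step, had 1.45 RPKM in both knockdown libraries (721 and 713 reads), against 0.971 and 1.05 RPKM in the controls (486 and 522 reads). Their limma adjusted p ranged from 0.16 to 0.248. PRPF18 had the lowest mean RPKM of all members, and its exons overlap those of another protein-coding gene on the same strand. Its gene model, by which RPKM divides, had 16430 bases. By reads U2AF1 was lower, at 46 to 125 a library. SNRNP40, SNRNP27, PRPF6, PRPF38A and PRPF38B had log2 fold changes between -0.15 and 0.05.

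PRPF19, the ubiquitin ligase that names the complex needed for spliceosome activation, had the largest excess of shNUDT21 1 over shNUDT21 5 among the members, 1.09 on the log2(RPKM + 1) scale. It had 91.2 RPKM in shNUDT21 1 and 42.3 RPKM in shNUDT21 5, against 77.0 and 70.6 RPKM in shPLKO 1 and 2. Thus shNUDT21 1 was above both controls and shNUDT21 5 below both, and the means were 66.7 ± 34.6 RPKM in the knockdown and 73.8 ± 4.55 RPKM in the controls (SD, n = 2 each).

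Of the 3 U11 proteins, SNRNP48, which contacts the 5′ splice site of minor introns, was lower. It had 3.58 and 2.77 RPKM in shNUDT21 1 and 5, against 4.96 and 5.94 RPKM in shPLKO 1 and 2, a ratio of 0.583 that did not pass (log2 fold change -0.63, limma adjusted p 0.0799). SNRNP25 and SNRNP35 overlapped between groups, with means of 10.4 ± 1.32 and 7.86 ± 1.40 RPKM in the knockdown and 10.7 ± 0.755 and 6.67 ± 0.795 RPKM in the controls (SD, n = 2 each). Exons of SNRNP25 overlap those of POLR3K, and exons of SNRNP35 those of RILPL1, both on the other strand.

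The LSm ring genes were the only role group with a positive median log2 fold change, 0.16, with 6 of 8 estimates above 0; over all genes 49.8% of estimates were positive. LSM2 to LSM8 make the ring on U6 RNA, and LSM1 replaces LSM8 in the cytoplasmic ring that promotes decapping. None was called, against 5.82% of all genes tested (limma, 1 higher at an unadjusted p under 0.05, against 33.9% in either direction, and 0 called by voom). LSM3 had 101 and 74.3 RPKM in shNUDT21 1 and 5, against 58.5 and 52.8 RPKM in shPLKO 1 and 2, a ratio of 1.57 (log2 fold change 0.63, limma adjusted p 0.1004). Its exons overlap those of XPC on the other strand, and it has 4 named pseudogenes. LSM5 had 22.2 and 12.5 RPKM, against 11.9 and 12.2 RPKM in the controls, so that its log2 fold change of 0.44 was 0.83 without shNUDT21 5 and 0.05 without shNUDT21 1. LSM8, the U6-specific subunit, had 3.08 and 1.97 RPKM, against 2.07 and 2.25 RPKM in the controls. These low values came from 738 to 1168 reads a library over a gene model of 12520 bases, by which RPKM divides. LSM1 had 42.5 and 31.6 RPKM, against 31.7 and 32.5 RPKM. LSM4, the most abundant at 150.0 ± 53.6 RPKM in the knockdown and 138 ± 6.41 RPKM in the controls (SD, n = 2 each), LSM2, LSM6 and LSM7 had log2 fold changes between -0.30 and 0.22. For every gene of the ring shNUDT21 1 was above shNUDT21 5. Against the control mean, shNUDT21 1 was higher for 7 of 8 genes, with a median log2 difference of 0.38, and shNUDT21 5 for 3 of 8, with a median of -0.06, so the positive median of the group rests on shNUDT21 1.

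Genes for LSm domain proteins outside these rings differed by at most 0.22 on the log2(RPKM + 1) scale between the knockdown libraries. LSM10 and LSM11 replace SmD1 and SmD2 in the U7 snRNP, which cuts the 3′ ends of histone messages. LSM11 had 1.94 and 1.90 RPKM in shNUDT21 1 and 5, against 2.66 and 2.68 RPKM in shPLKO 1 and 2 (ratio 0.718, log2 fold change -0.33, limma adjusted p 0.126), from 375 to 535 reads a library. LSM10 had 51.6 and 54.7 RPKM, against 55.2 and 53.6 RPKM in the controls. LSM14A, a processing body protein that acts in translational repression, had 22.2 and 25.9 RPKM, against 16.7 and 18.5 RPKM in the controls (ratio 1.37, log2 fold change 0.43, limma adjusted p 0.118). Its paralog LSM14B had 19.6 and 18.0 RPKM, against 19.2 and 19.0 RPKM in the controls, and LSM12 averaged 18.3 ± 0.269 RPKM in the knockdown and 21.2 ± 2.12 RPKM in the controls (SD, n = 2 each).

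Removal of the GC content and length trend moved further estimates named above by over 1.5 times, all of them not called. The log2 fold change became -0.42 for PRPF31, -0.33 for SF3B5, 0.03 for both SNRPD1 and PRPF4B, 0.15 for PRPF39, 0.19 for PRPF18, 0.23 for LSM14A and 0.27 for LSM5. Without shPLKO 1 it was 0.195 for PRPF39 and 0.14 for PRPF4B.

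The knockdown libraries differed from each other across the members. Of the 56 genes, 49 (87.5%) were higher in shNUDT21 1 than in shNUDT21 5, against 55.3% of all genes tested. In the 2 largest lists described below, this held for 58 of 79 other spliceosomal proteins and 17 of 25 snRNP assembly and import genes. The median difference, shNUDT21 1 minus shNUDT21 5 on the log2(RPKM + 1) scale, was 0.31 over the members and 0.05 over all genes. Between shPLKO 1 and shPLKO 2 it was 0.02 over the members and -0.02 over all genes. All 7 Sm genes and all 8 LSm ring genes had this direction, with medians of 0.52 and 0.53. The exceptions were SNRPB2, PRPF3, PRPF38A, SNRNP27, LSM10, LSM12 and LSM14A, of which SNRPB2 differed most, by -1.12. As a result the median log2 fold change of the members was 0.11 without shNUDT21 5 and -0.23 without shNUDT21 1. With a library a side this difference has no replicate check.

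**Figure D3:**
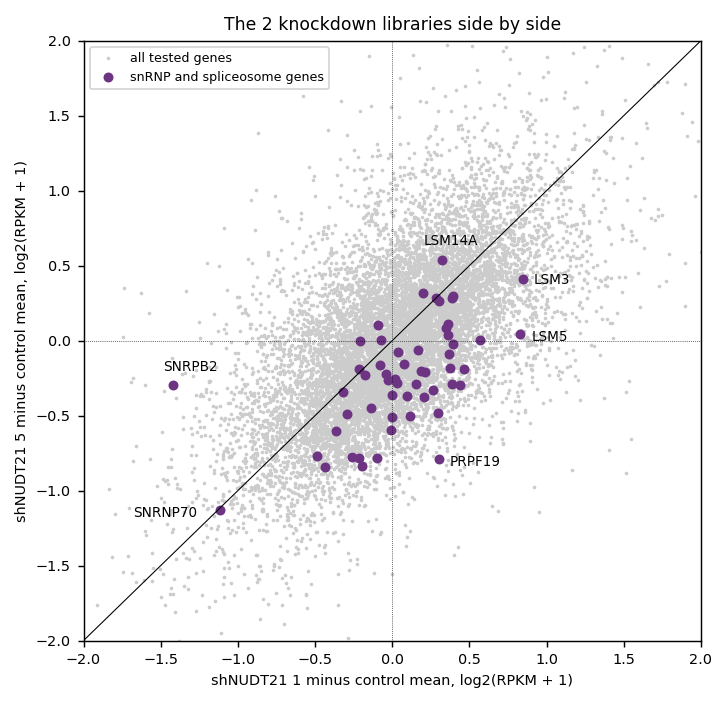
The x and y axes give the difference of shNUDT21 1 and of shNUDT21 5 from the control mean in log2(RPKM + 1), for all tested genes within 2 units (grey) and for 55 members (purple); the solid line marks equal differences. Most members lie below the line, SNRNP70 lies on it, and SNRPB2 lies far above it.

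Outside the symbol pattern, 79 other spliceosomal proteins were tested, and 4 of them were called lower and none higher, against 3.21% of all genes called lower and 2.61% called higher (limma, 12 higher and 16 lower at an unadjusted p under 0.05; voom called 1 higher and 5 lower). Such an unadjusted p was reached by 33.9% of all genes tested. Of 11117 genes, voom called 369 higher and 382 lower. The list median was -0.04. EFTUD2, the U5 GTPase that binds PRPF8 and SNRNP200, had 19.0 and 21.9 RPKM in shNUDT21 1 and 5, against 41.1 and 41.0 RPKM in shPLKO 1 and 2 (ratio 0.498, log2 fold change -0.97, limma adjusted p 0.0416). SART1, a tri-snRNP protein needed for its recruitment, had 18.7 and 19.8 RPKM, against 31.5 and 31.9 RPKM in the controls (log2 fold change -0.69, limma adjusted p 0.0494). XAB2, of the intron-binding complex, had 43.1 and 43.3 RPKM, against 72.9 and 70.4 RPKM in the controls (log2 fold change -0.72, limma adjusted p 0.04765). DDX41, a helicase of late spliceosomes, had 28.7 and 25.8 RPKM, against 49.2 and 45.2 RPKM in the controls (log2 fold change -0.77, limma adjusted p 0.0494). Of CD2BP2, another U5 protein, the ratio was 0.616 and the limma adjusted p 0.0505. After removal of the GC content and length trend EFTUD2, SART1, XAB2 and DDX41 did not pass (limma adjusted p 0.0524, 0.0822, 0.0773 and 0.073), at log2 fold changes of -0.88, -0.49, -0.49 and -0.56. With no filter on low values, where no gene of the whole table was called, their limma adjusted p was 0.0653, 0.0657, 0.0653 and 0.0675. SART1 and DDX41 also did not pass with a pseudocount of 0.1 (limma adjusted p 0.0509 and 0.0501) or quantile normalization (0.0514 and 0.0516), nor SART1 without the intensity trend (0.0502). Like SNRNP70, all 4 had groups that did not overlap, as did 66.2% of all genes tested. They were picked by a test on the same values, so this adds no support. Without shPLKO 1 their limma adjusted p was 0.481, 0.579, 0.582 and 0.5805, and without shPLKO 2 0.415, 0.495, 0.481 and 0.454.

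**Figure D4:**
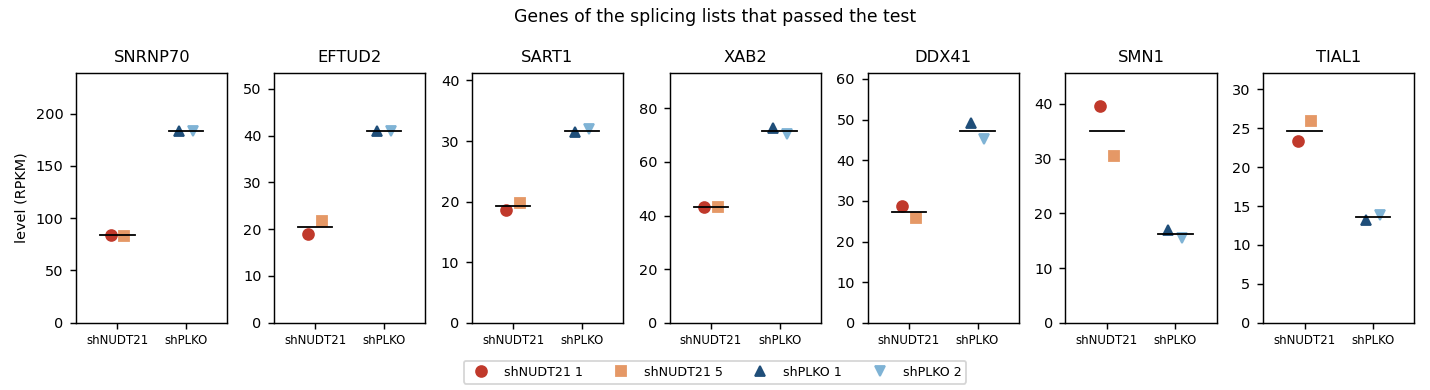
The y axes give the level in RPKM, from 0, of each gene of the spliceosomal lists that passed the test; symbols are libraries and lines are group means of 2 libraries. SNRNP70, EFTUD2, SART1, XAB2 and DDX41 are lower in shNUDT21, and SMN1 and TIAL1 are higher.

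In snRNP assembly and import, 1 of 25 genes was called higher, against 2.61% of all genes tested. This gene was SMN1, which encodes the survival motor neuron protein that loads Sm rings on RNA. It had 39.7 and 30.5 RPKM in shNUDT21 1 and 5, against 17.0 and 15.6 RPKM in shPLKO 1 and 2 (log2 fold change 1.05, limma adjusted p 0.0457, and 0.0514 at a log2 fold change of 0.99 once that trend was removed). Reads of SMN1 and its near-identical copy SMN2 could be split either way, which makes this value uncertain. Summed, the pair stood at 47.9 and 37.0 RPKM in the knockdown, against 28.9 and 23.7 RPKM in the controls. NCBP1, the large subunit of the cap-binding complex, had a ratio of 1.999 and a limma adjusted p of 0.0507. Without shPLKO 1 and without shPLKO 2 the limma adjusted p of SMN1 was 0.4605 and 0.415, and with no filter on low values 0.0741. Of the list 13 estimates were positive and 12 negative.

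Among 5 genes that accompany U1, 1 was called higher, against 2.61% of all genes tested. This gene was TIAL1, which binds uridine-rich sequence next to 5′ splice sites and helps to recruit U1. It had 23.4 and 26.0 RPKM in shNUDT21 1 and 5, against 13.2 and 13.9 RPKM in shPLKO 1 and 2 (log2 fold change 0.82, limma adjusted p 0.0449, and 0.0752 at a log2 fold change of 0.54 once that trend was removed). Its limma adjusted p was 0.532 without shPLKO 1, 0.438 without shPLKO 2 and 0.0657 with no filter on low values. LUC7L, LUC7L2 and LUC7L3, homologues of a yeast U1 protein, had log2 fold changes of -0.35, -0.07 and -0.23. In the remaining lists no gene was called by limma or by voom. At an unadjusted p under 0.05 (limma) they held 3 of 7 U11/U12 proteins and 1 of 5 exon junction proteins. The same held for 3 of 8 decapping partners of the cytoplasmic LSm ring. Limma called 5.82% of all genes tested, and 33.9% reached such a p. The lowest limma adjusted p-values were 0.0799 for RNPC3, a U11/U12 protein that contacts U12 RNA, with a ratio of 1.94, 0.0854 for PDCD7 of U11, with a ratio of 0.716, 0.122 for EIF4A3, the helicase of the exon junction complex, with a ratio of 0.714, and 0.0686 for DDX6, a decapping helicase, with a ratio of 1.59. RBM8A and EDC3, next in their lists, had ratios of 0.655 and 0.754. RNPC3 rested on 45 to 102 reads a library. After removal of the GC content and length trend its log2 fold change went from 0.51 to 0.29. That of DDX6 went from 0.63 to 0.33 and that of LUC7L from -0.35 to -0.18. PDCD7 and EIF4A3 moved less, from -0.44 to -0.30 and from -0.49 to -0.38.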

How the data were processed

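RNA was sequenced from HCT116 cells with a SMARTer mRNA kit, per the labels' protocols. Bowtie 0.12.2 and the build hg18 are named in the submitters' processing notes, with no role or order. Counting tool, annotation, use of strand: not given in the sources used here. Units were inferred from the values: the authors deposited RPKM, not logged. Rows holding a date in place of a symbol (27 of 20030) were left out.

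Low values gave relative depth, and gene steps with GENCODE v29 transcript lengths gave the total (708 lengths, against 33 for the next). Reads are the smallest whole numbers that fit, and intervals cover counting error only. Fold changes and p-values came from limma 3.58.1 (R 4.3.3) on log2(RPKM + 1), which understates changes of low genes, with an intensity trend. It covered 11124 genes averaging 1 RPKM or more, shNUDT21 against shPLKO, two-sided, Benjamini-Hochberg adjusted, with 2 residual and 2.71 prior degrees of freedom. The fit was tested on simulated data with changes of 2 log2 units, larger than those of the members, so it was not tested at their size.

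Members, lists and tests were chosen with earlier results of these data known. Named were NUDT21, members past the test, the 10 highest and 10 lowest fold changes, the highest and lowest level in each role, and in each further list genes past the test and the 2 with the lowest p; other members were named to account for the rest. The values of 1 member are not reported here and not drawn, but it is in the counts. GENCODE v29, of another build than hg18, gave symbols, exon overlaps of at least 50 bases, pseudogenes, GC content and transcript ends, and no coordinates.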

Additional observations from a re-analysis of the deposited data

How the results depend on the processing

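The counts of members called were the same (0 higher, 1 lower) with a pseudocount of 0.1, a mean of at least 5 RPKM, no intensity trend, libraries scaled to the same median, quantile normalization, the GC content and length trend removed, and voom on recovered reads. Over all genes tested, these settings called from 163 (trend removed) to 369 (voom) higher. They called from 127 (trend removed) to 498 (same median) lower. At a mean of at least 5 RPKM, 49 members were tested, and 198 higher and 233 lower of 7528 genes were called. With no filter on low values 0 members were called lower (limma, 6 at an unadjusted p under 0.05), and SNRNP70 had an adjusted p of 0.0653. Leaving out a library in turn gave 0 to 23 members higher and 0 to 33 lower, and a member median between -0.23 and 0.11; the same fits called 0 to 68.7% of all genes, and 0 of all genes were called with no filter. SNRNP70 stayed between -1.16 and -0.87 over the 12 settings, with adjusted p from 1.35e-48 to 0.4705. U2SURP reversed from 0.24 to -0.14 with the GC content and length trend removed; the cause was not tested. NCBP1 passed with libraries scaled to the same median (adjusted p 0.0486) and with voom (0.0491). No paired analysis was possible because the groups share only the number 1. Depth limits the lowest members most: U2AF1 rests on 46 to 125 reads a library.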

Other observations

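A few genes with close relations to the members have symbols outside the pattern. PHF5A, a small SF3B subunit, had 61.3 and 38.1 RPKM in shNUDT21 1 and 5, against 37.6 and 34.4 RPKM in shPLKO 1 and 2; both knockdown libraries were higher, but the difference did not pass (limma adjusted p 0.305). TXNL4B, a relative of the U5 protein TXNL4A, had 8.82 and 6.02 RPKM in the knockdown, against 4.79 and 4.85 RPKM in the controls. U2AF1L4, a paralog of U2AF1, had 10.1 and 4.57 RPKM in the knockdown, against 6.53 and 5.85 RPKM in the controls, with shNUDT21 1 above and shNUDT21 5 below both controls. SNRPN, a paralog of SNRPB, was listed at 0 in every library except shNUDT21 5, where it was at 0.0104 RPKM.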
